A study of Mus musculus with 5 samples.

Results

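The adult lung of mice that had breathed hyperoxia as newborns was compared with that of mice kept in air, in single-cell libraries of postnatal day (pnd) 60. Barcodes with more than 700 and fewer than 8000 detected genes and under 5% of counts from mitochondrial features were kept. This left 4397 cells in the air library and 4756 in the hyperoxia library, or 9153 of the 13200 cells that passed the same filter in all 5 libraries of the series. Both libraries came from unsorted lung cells of C57BL/6J mice. Pups under 12 hours old were placed with their dams in room air or in over 95% O2 for 3 days, the dams being exchanged every 24 hours, and the mice then lived in room air until pnd60. The other 3 libraries were taken at pnd7. The study asked how neonatal hyperoxia alters senescence and gene expression in the growing lung, and the pnd60 libraries address what remained in adulthood. There was 1 library for each condition, and how many mice, and of which sex, went into each was not given in the sources used here.

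Newborn mouse lungs are still forming alveoli, so high oxygen at that age meets a tissue in which epithelium, capillaries and fibroblasts are being laid down together. The alveolus is lined by thin type I cells and by type II cells, which make surfactant. It is supplied by general capillary cells and by aerocytes, the broad capillary cells that face the air space, and is patrolled by resident macrophages. Oxygen injury is known for arresting alveolar growth, for inducing Cdkn1a (p21) and for switching on inflammatory secretion.

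With a single library a side no test between conditions was possible. Values were counts summed over cells and expressed as CPM, that is scaled to the total counts of the cells concerned. A ratio is given as log2 of hyperoxia over air with its exact 95% interval from the counts. Poisson intervals on counts, binomial (Clopper-Pearson) intervals on shares and the intervals on ratios cover counting error only, not the spread between mice. A gene counted as past the fold when it had at least 100 counts in both libraries together and differed by at least 1.5-fold.

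The libraries were alike in depth, with 14744081 counts in the kept air cells and 16533775 in the kept hyperoxia cells. Their medians were 2168 and 2315.5 counts per cell and 1266 and 1330 genes per cell. A caller of doublets marked 3.21% and 3.30% of cells, and 4 kept barcodes occurred in both libraries. Hemoglobin made up 0.296% of the kept counts in air and 0.117% in hyperoxia. Cells with Xist counts and none from Y-linked genes made up 34.2% of the air cells and 41.2% of the hyperoxia cells. Cells with only Y-linked counts made up 30.6% and 27.1%, so both libraries held cells of both kinds, in unequal proportion.

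Cells fell into 38 clusters, of which 32 were given 21 class names from marker genes and 6 stayed unnamed (194 and 200 cells). Summed over its own markers, every class lay well above the other cells. The classes were named from these same markers, so this is no separate support for the names. Type II-like cells, for example, had 168988 and 171838 CPM of their 10 markers in air and hyperoxia, against 1407 CPM in cells outside the class. At 0 counts were 2 of 8 type I markers, 2 of 11 T cell markers and 1 marker each of B cells, interstitial macrophages and plasmacytoid dendritic cells. Only 9 of 12 conventional dendritic cell markers and 7 of 8 nonclassical monocyte markers were at least 2-fold above the other cells, though none was at 0.

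The makeup of the adult lung was nearly the same in both libraries. Immune cells made up 57.0% of air and 57.1% of hyperoxia cells (log2 ratio 0.00, interval −0.07 to 0.08). Endothelial cells made up 18.1% and 17.4% (−0.06, −0.20 to 0.08), epithelial cells 12.3% and 13.3% (0.10, −0.06 to 0.27) and mesenchymal cells 8.12% and 7.99% (−0.02, −0.24 to 0.19). All 4 intervals spanned 0, and none reached beyond 0.27 on either side.

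Within these compartments the largest classes had similar shares as well. B cell-like cells were 28.5% of the air library (27.2% to 29.9%) and 26.7% of the hyperoxia library (25.4% to 28%). General capillary-like cells were 13.3% (12.3% to 14.3%) and 12.6% (11.7% to 13.6%). T cell-like cells were 11.2% and 12.0%, type II-like cells 10.5% and 11.3%, and alveolar fibroblast-like cells 5.91% and 5.85%. Cells of a class were not divided alike among its clusters, which are drawn from the same expression values. Of the B cell-like clusters, 1 held 220 and 392 cells (0.72, 0.48 to 0.96) and another 329 and 246 (−0.53, −0.78 to −0.29). A type II-like cluster held 121 and 178 cells (0.44, 0.10 to 0.79). A general capillary-like cluster held 411 and 362 cells (−0.30, −0.50 to −0.09) and another 173 and 239 (0.35, 0.06 to 0.64).

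Of the cells that the alveolar gas exchange surface depends on, type I-like cells numbered 39 and 54 (0.887% and 1.14%, log2 ratio 0.36, −0.26 to 0.99) and aerocyte-like cells 118 and 133 (2.68% and 2.80%). Their intervals overlapped throughout, so no difference in these shares was detectable at this number of cells.

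Neutrophil-like cells were the exception among the named classes, the only 1 of 21 whose ratio interval left 0. These cells, which enter the lung in acute inflammation, numbered 31 in air and 59 in hyperoxia. That is 0.705% (0.480% to 0.999%) against 1.24% (0.946% to 1.60%), a log2 ratio of 0.82 (0.16 to 1.49). Neutrophils carry little RNA, and with a lower gene threshold of 500 the numbers became 91 of 4711 and 113 of 5253 cells. The ratio was then 0.16 (−0.26 to 0.57).

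Cells were also assigned one by one from their own markers, which gave counts for types that had no named cluster. Club-like airway cells, the secretory cells of the bronchioles, were 51 in air (1.16%, 0.865% to 1.52%) and 34 in hyperoxia (0.715%, 0.496% to 0.998%), a log2 ratio of −0.70 (−1.37 to −0.04). Erythroid-like barcodes were 49 and 21 (−1.34, −2.15 to −0.57). The hemoglobin genes are among the markers that picked these barcodes, so their number is not independent of the hemoglobin counts given above. Innate lymphoid type 2-like cells (41 and 57), lymphatic endothelial-like cells (13 and 21) and plasma-like cells (19 and 22) had intervals that spanned 0.

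**Figure D1:**
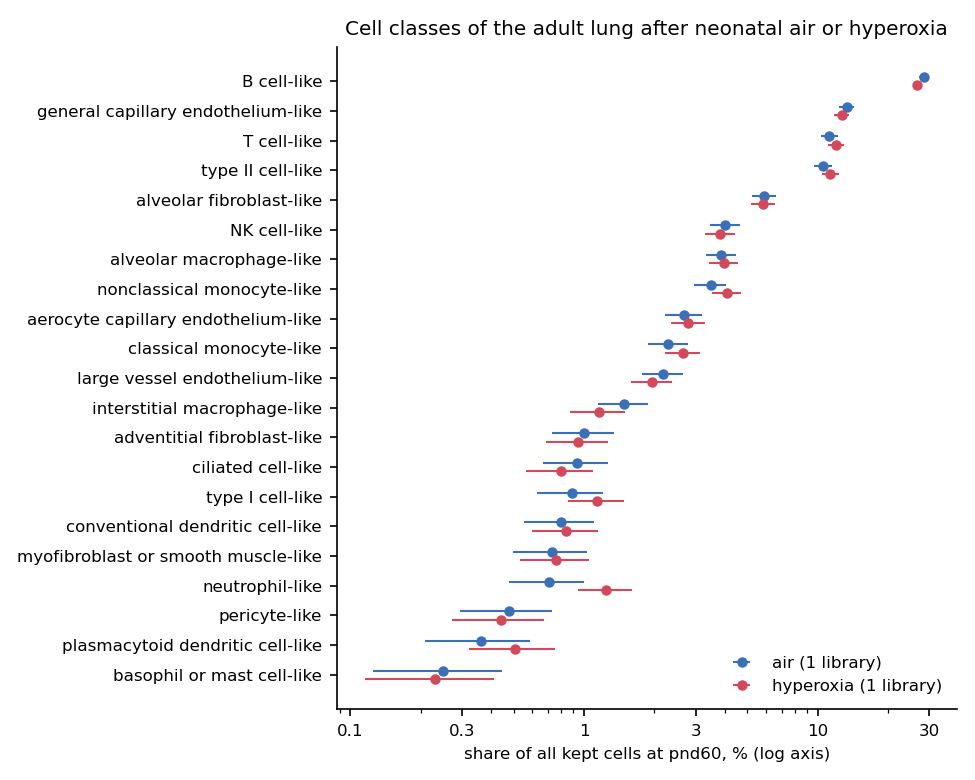
Share of each of the 21 named cell classes in the air and the hyperoxia library at pnd60, in percent of all kept cells on a logarithmic axis, with bars for exact 95% binomial intervals. The pairs of points lie close together from the B cell-like class (28.5% and 26.7%) down to the rarest classes, and the neutrophil-like pair (0.705% and 1.24%) stands furthest apart relative to its interval.

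Over all cells, 12928 genes reached 100 counts. Of these, 148 genes (1.14%) were at least 1.5-fold higher in the hyperoxia library and 107 (0.828%) at least 1.5-fold lower. The median log2 ratio was 0.01, and from the 5th to the 95th percentile the ratios ran from −0.28 to 0.31. The adult transcriptomes thus lay close to each other, with a small set of genes far outside that band. In sums over a whole library, more or fewer cells of a type and more or less RNA per cell cannot be told apart, so the leading genes were followed into the cell classes.

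**Figure D2:**
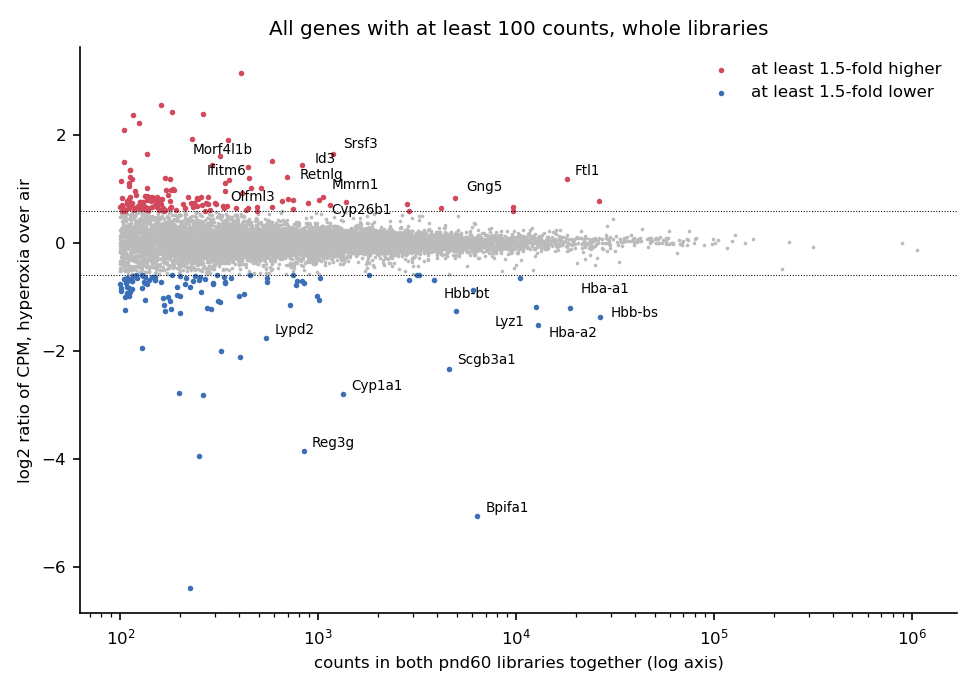
Log2 ratio of hyperoxia over air (vertical axis) against the counts in both libraries together (logarithmic horizontal axis) for the 12928 genes with at least 100 counts, with dotted lines at 1.5-fold and labels on the 10 highest and 10 lowest genes with at least 500 counts. Most points lie between −0.28 and 0.31. Among the labelled genes Bpifa1 (−5.05), Reg3g (−3.85) and Cyp1a1 (−2.80) lie lowest and Srsf3 (1.64), Morf4l1b (1.52) and Id3 (1.44) highest, and the more extreme unlabelled points have under 500 counts.

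Cyp1a1 was the lowest gene that was carried by many cells. It encodes a cytochrome P450 that is the classical target of the aryl hydrocarbon receptor and metabolizes polycyclic compounds, and in lung it is an endothelial gene. The air library held 1146 Cyp1a1 counts in 245 cells (77.7 CPM) and the hyperoxia library 185 counts in 89 cells (11.2 CPM), a 6.95-fold lower level (log2 −2.80, −3.03 to −2.57). The 3 barcodes with most counts held 9.51% and 9.19% of them, and without those barcodes the ratio was −2.79.

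The difference in Cyp1a1 lay mostly in the endothelium. Type II-like cells were the only other class with at least 20 counts, and their ratio was the lowest (−3.23). It rested on few counts, 5 in air and 0 in hyperoxia in their Xist-only cells and 20 and 0 in their Y-linked-only cells. Aerocyte-like cells held 543 and 70 counts, or 1438 and 193 CPM (log2 −2.90, −3.28 to −2.53), in 51 of 118 and 26 of 133 cells. General capillary-like cells held 462 and 86 counts, or 414 and 64.9 CPM (−2.67, −3.02 to −2.34), in 129 and 47 cells. Large vessel-like cells held 61 and 19 counts (−1.98, −2.80 to −1.22). Aerocyte-like cells thus had the highest level in both libraries. Over all cells, other genes of the receptor's pathway were level or hardly counted. Tiparp, which feeds back on the receptor, had 1309 and 1439 counts (−0.03, −0.14 to 0.08). Cyp1b1 had 24 and 24, and the repressor Ahrr 7 and 7. These sums over the whole libraries do not show the level of the pathway in endothelium.

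The Cyp1a1 difference was not the same in cells of the 2 sexes. Among cells with Y-linked counts only, general capillary-like cells had 714 CPM in air and 45.1 CPM in hyperoxia, with a count in 54 of 146 and 10 of 150 cells. Among cells with Xist only, the levels were 18.0 and 74.2 CPM, with a count in 7 of 228 and 21 of 273 cells. Aerocyte-like cells showed the same contrast, with 1957 and 126 CPM in Y-linked cells (21 of 40 and 5 of 43 cells) and 51.8 and 334 CPM in Xist cells (6 of 41 and 17 of 56 cells). The high Cyp1a1 of the air library was therefore found in its Y-linked cells, and among Xist cells the hyperoxia library was the higher one, in both capillary classes. In large vessel-like cells the Xist counts were few, 8 and 6, against 36 and 1 in Y-linked cells. How many mice stood behind each kind of cell is not given, so a single mouse, sex and neonatal exposure cannot be told apart. The split by sex genes was made after the values were seen.

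**Figure D3:**
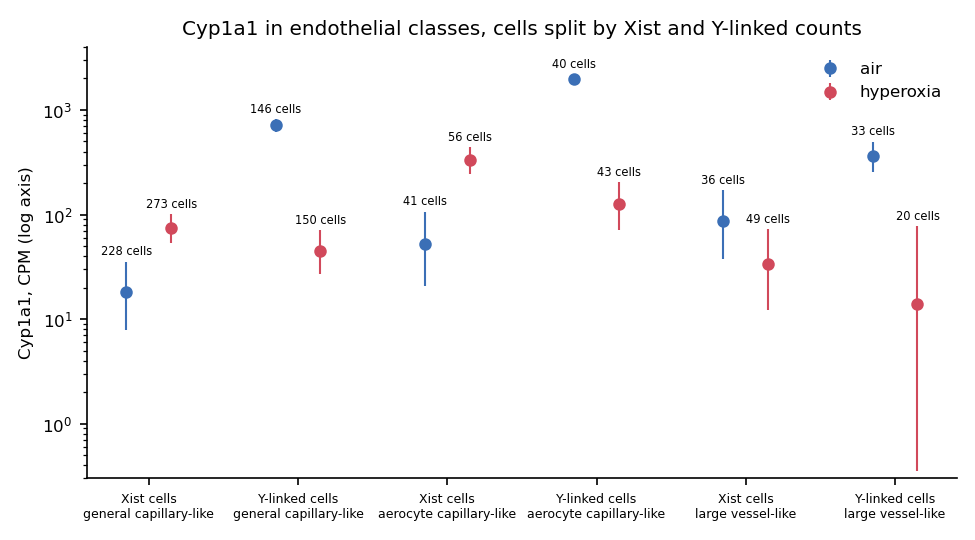
Cyp1a1 level in CPM on a logarithmic axis in 3 endothelial classes of the air and hyperoxia libraries, separately for cells with Xist counts only and with Y-linked counts only, with exact 95% Poisson bars and the number of cells. In general capillary-like cells the Y-linked cells of the air library stand at 714 CPM and those of the hyperoxia library at 45.1 CPM, while the Xist cells run the other way, from 18.0 to 74.2 CPM.

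Airway secretory genes formed the other low group, and they rested on few cells. Of 13 genes fixed for airway secretions and injury, 10 were tested, 6 of them at least 1.5-fold lower and none higher, with a median of −0.93 against 0.01 for all genes. Of all tested genes 0.828% were that much lower and 1.14% higher. Bpifa1, an antimicrobial protein of airway mucus, had 6125 and 207 counts (−5.05), but 3 barcodes held 98.2% of the air counts and without the leading 3 barcodes of each library the ratio was −0.69. Reg3g, an antimicrobial lectin, had 782 and 61 counts (−3.85, and −3.28 without the 3 barcodes, which held 87.9%). Scgb3a1, a secretoglobin of the upper airway, had 3739 and 837 counts (−2.32, and −2.24 without the 3 barcodes). Muc5b, the gel-forming mucin, had 251 and 70 counts in 9 and 7 cells.

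The bronchiolar markers moved less. Scgb1a1, the main club cell secretoglobin, had 122361 and 97705 counts (−0.49, −0.50 to −0.48), and Scgb3a2 3772 and 2309 (−0.87, −0.95 to −0.80). In the club-like cells picked by their own markers Scgb1a1 stood at 260951 and 260597 CPM, with 60.2% and 85.9% of it in 3 barcodes, and Scgb3a2 at 10574 and 7983 CPM (−0.41, −0.49 to −0.32), whereas Scgb3a1 had 3656 and 744 counts there and Bpifa1 6050 and 143. A single barcode held 3681 Bpifa1 counts, or 60.1% of the Bpifa1 of the whole air library. Scgb1a1, Scgb3a2, Scgb3a1 and Bpifa1 are among the markers that picked the club-like cells. Their levels there, and the number of these cells, are thus not independent of the choice. All of these airway values rested on a few barcodes.

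Several of the highest genes were higher in nearly every class. Srsf3, a splicing factor, had 263 counts in air and 921 in hyperoxia (17.8 and 55.7 CPM, 3.12-fold, log2 1.64, 1.44 to 1.85), and was counted in 5.71% and 16.8% of cells. Its ratio was above 0, interval included, in 11 of the 11 classes with at least 20 counts, from 1.35 in ciliated-like cells to 2.34 in general capillary-like cells. Ftl1, the ferritin light chain that stores iron, had 5065 and 12893 counts (1.18, 1.14 to 1.23) and lay above 0 in 21 of 21 classes, every interval included. Its partner Fth1, the heavy chain, had 42311 and 46399 counts (−0.03, −0.05 to −0.01). Gng5, a G protein gamma subunit, had 1642 and 3293 counts (0.84, 0.75 to 0.92) and lay above 0 in 19 of 19 classes, with 13 intervals above 0.

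Some of these genes have more than 1 entry in the reference to which reads were assigned. The feature table lists a second, numbered entry under the same symbol for 1740 genes, and Srsf3 and Olfml3 are among them. Of the 12928 tested genes 262 (2.03%) had such an entry, but of the 148 higher genes 27 (18.2%) did, and of the 107 lower genes 2 (1.87%). Among tested genes with a numbered entry 10.3% were at least 1.5-fold higher and 0.763% lower, against 0.955% and 0.829% of the genes without one. Their medians were 0.02 and 0.01. A median does not show a shift that is confined to a part of the genes, such as the 10.3% above. How alike the sequences of the numbered entries are was not measured. Examples with few counts were Ppp1r18 (26 and 156 counts), Phc2 (67 and 281) and H2-K1 (72 and 220).

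Processed copies gave a like picture for Gng5. Its copy Gng5-ps had 1803 and 1337 counts and was below 0 in 17 of 17 classes, and the pair together had 3445 and 4630 counts (0.26, 0.20 to 0.33), Gng5 taking 47.7% and 71.1% of the pair. In the last 400 bases of the transcript, 85.6% of the 31-base words of Ftl1, 36.2% of those of Gng5 and 28.7% of those of Srsf3 also occurred in another gene, against 0% for Olfml3. The words were compared between gene symbols, so a second entry under the same symbol, as for Olfml3, could not be seen. At least 50% of the words were shared by 2.36% of the tested genes with a transcript to compare, 4.51% of the higher and 6.25% of the lower. These shares therefore do not bear on the numbered entries. How reads were divided between such entries in each library was not tested.

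Lyz1 and Lyz2, the lysozyme genes of type II cells and macrophages, were a matched case. Lyz1 had 8436 and 4162 counts (−1.18, −1.24 to −1.13) and Lyz2 9000 and 17296 (0.78, 0.74 to 0.81), in opposite directions. Together they had 17436 and 21458 counts (0.13), and in type II-like cells 14174 and 15517 (0.01, −0.02 to 0.04). Lyz1 took 48.4% of the pair in air and 19.4% in hyperoxia at pnd60, and 69.9% and 69.1% in the pnd7 libraries. Over all type II-like cells the sum of the pair was thus level, while its division was not. Lyz1 in these cells stood at −0.42 (−0.53 to −0.31) in Xist cells and −1.29 (−1.37 to −1.21) in Y-linked cells. Lyz2 stood at 0.74 (0.67 to 0.82) and 0.89 (0.82 to 0.96). The sum was not taken separately for each kind of cell, so it may not be level in either. In alveolar macrophage-like cells the sum itself was higher, with 1625 and 2888 counts (0.58, 0.50 to 0.67), Lyz1 taking only 1.29% and 2.74% of it.

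Morf4l1b had 138 and 445 counts (1.52, 1.25 to 1.81), while its sum with Morf4l1 and Morf4l1-ps1 had 3071 and 3652 (0.08, 0.02 to 0.15).

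Id3 was the highest gene with at least 500 counts and no such copy. It encodes an inhibitor of basic helix-loop-helix factors that BMP signalling induces. Id3 had 205 counts in 179 air cells and 622 counts in 465 hyperoxia cells (13.9 and 37.6 CPM, 2.71-fold, log2 1.44, 1.21 to 1.67), and none of its terminal 31-base words occurred in a gene of another symbol. It was above 0 in 10 of 10 classes, with 8 intervals above 0. In general capillary-like cells it had 43 and 168 counts (1.72, 1.23 to 2.24), in aerocyte-like cells 19 and 50 (1.46, 0.67 to 2.30), in large vessel-like cells 19 and 63 (1.43, 0.67 to 2.26) and in alveolar fibroblast-like cells 55 and 127 (1.19, 0.73 to 1.68). It was thus higher in endothelium and fibroblasts alike, and also in B cell-like cells (21 and 46 counts, 1.06, 0.29 to 1.88). In cells with Xist only it was 1.27 (0.90 to 1.65) and in cells with Y-linked counts only 1.70 (1.28 to 2.15). Of the 16 genes fixed for TGF-beta, BMP and Wnt signals, Id3 was the only one past the fold upward and Ccn2, a matricellular target of TGF-beta and YAP, the only one past it downward (1699 and 1182 counts, −0.69, −0.80 to −0.58). Their median was 0.05. Of all tested genes 1.14% were at least 1.5-fold higher and 0.828% lower.

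Tsc22d3 and Per1, of the list of glucocorticoid-responsive genes and metallothioneins, lay below 0 in most classes. Of the 6 tested members of that list all 6 lay below 0, with a median of −0.28 against 0.01 for all genes. Past the fold downward was 1 of them, against 0.828% of all tested genes. Tsc22d3 (GILZ), a mediator of the anti-inflammatory action of glucocorticoids, had 6089 and 4350 counts (413 and 263 CPM, −0.65, −0.71 to −0.59). Per1, a clock gene with a glucocorticoid response, had 1722 and 1298 (−0.57, −0.68 to −0.47). Klf9, an early target of the receptor, had 5425 and 4608 (−0.40, −0.46 to −0.34), but it is not on the list and was followed after its values were seen. Tsc22d3 was below 0 in 20 of 20 classes (15 intervals), Per1 in 17 of 18 (8 intervals) and Klf9 in 16 of 17 (11 intervals). The metallothioneins Mt1 and Mt2 stood at −0.27 and −0.28.

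The alveolar fibroblast-like cells, which make the matrix of the alveolar wall, had the lowest list median of the classes with at least 3 tested members. For the single genes other classes lay lower still, Tsc22d3 in myofibroblast or smooth muscle-like cells (−1.95), Per1 in general capillary-like cells (−1.71) and Klf9 in interstitial macrophage-like cells (−1.03). Tsc22d3 had 440 counts in 154 air cells and 144 counts in 94 hyperoxia cells (398 and 129 CPM, −1.62, −1.91 to −1.35). Per1 had 305 and 138 counts (−1.16, −1.46 to −0.86), Klf9 1345 and 914 (−0.57, −0.69 to −0.45) and Mt1 133 and 46, the last in 26 and 12 cells only. The list's median there was −1.16 over 5 tested members, with 3 past the fold downward, while 1.68% of the 4335 genes tested in the class were at least 1.5-fold higher and 2.86% lower. Nr4a3, an orphan nuclear receptor induced within minutes of a stimulus, had 99 and 12 counts in 50 and 10 cells (−3.06, −4.06 to −2.19). Olfml3, a secreted matrix protein, was among the highest, with 159 and 338 counts (1.07, 0.80 to 1.36), and it is one of the genes with a numbered entry. Fibrillar collagen was close to level: Col1a1 had 2179 and 2322 counts (0.08, −0.01 to 0.16) and Col3a1 2431 and 2912 (0.25, 0.17 to 0.33). Elastin (Eln) had 1357 and 1834 (0.42, 0.32 to 0.52).

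Clock genes as a list were level, with a median of −0.04 over 14 tested and none past the fold. Dbp, an output gene of the clock, stood at −0.32 (−0.46 to −0.19), Nr1d1 at 0.08 (0.00 to 0.15) and Arntl, the activator in antiphase to them, at 0.22 (0.04 to 0.41). The hour at which the lungs were taken was not given in the sources used here.

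**Figure D4:**
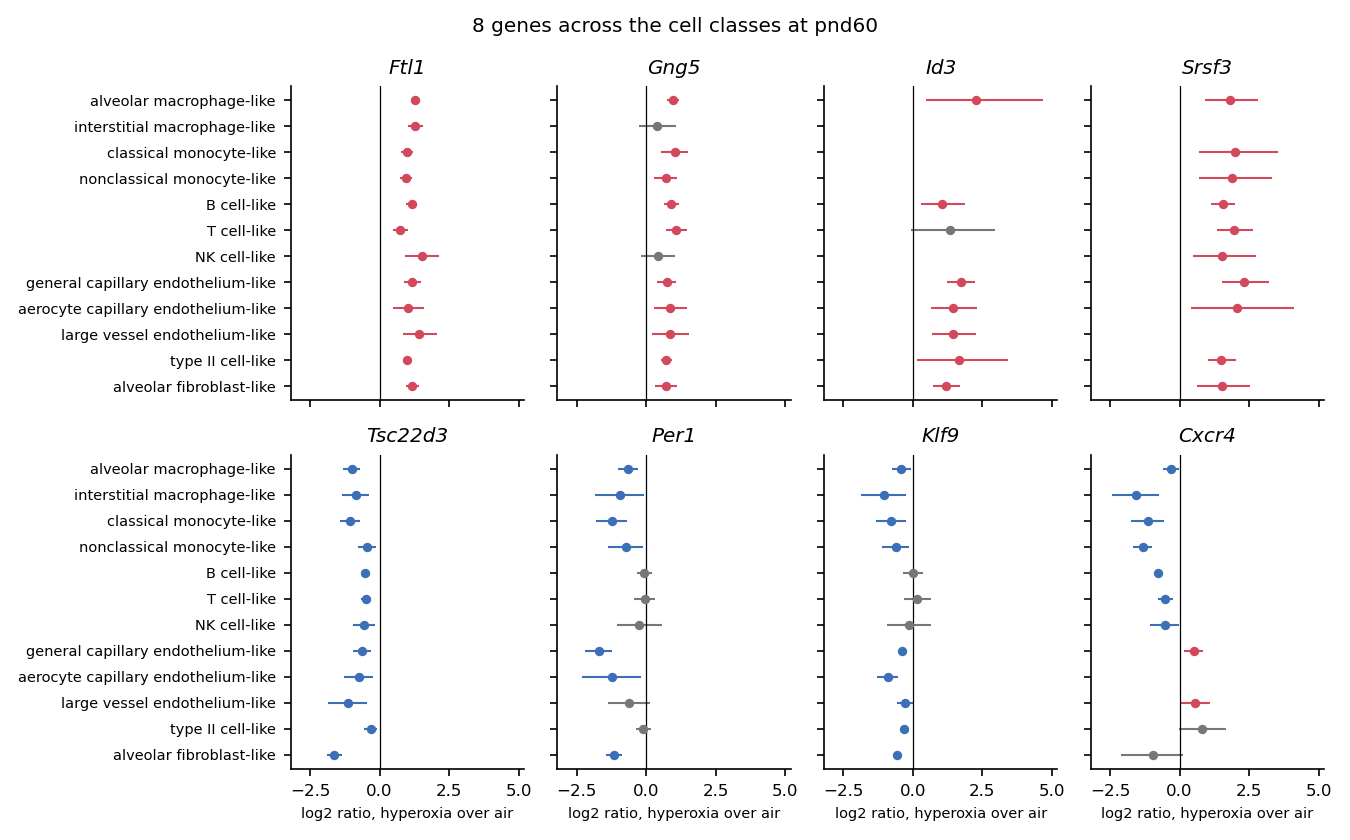
Log2 ratio of hyperoxia over air with 95% counting intervals for Ftl1, Gng5, Id3, Srsf3, Tsc22d3, Per1, Klf9 and Cxcr4 in the 12 classes with at least 50 cells in each library, shown where the gene had at least 20 counts. Intervals above 0 are red, below 0 blue and spanning 0 grey. Ftl1, Srsf3 and Id3 lie to the right in all classes shown, Tsc22d3 lies to the left in all, and Cxcr4 lies to the left in immune classes and to the right in the general capillary-like, large vessel-like and type II-like classes, in the last with an interval that spans 0.

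In the capillary endothelium, 1.34% of 4917 genes of general capillary-like cells were at least 1.5-fold higher and 1.16% lower. The low genes of these cells besides Cyp1a1 included Per1 (135 and 49 counts, −1.71, −2.21 to −1.23) and Dusp8, a phosphatase of stress kinases (164 and 98, −0.99, −1.37 to −0.62). Per1 stood at −1.73 in their Xist cells and −1.79 in their Y-linked cells. Dusp8 stood at −1.26 (−1.85 to −0.69) and −0.17 (−0.90 to 0.58). Plaur, the urokinase receptor, had 103 and 51 counts (−1.26, −1.78 to −0.77). Cdkn1a had 78 counts in 61 air cells and 40 counts in 27 hyperoxia cells (−1.21, −1.80 to −0.64). The flow-responsive factors Klf2 (2589 and 2040 counts, −0.59, −0.68 to −0.51) and Klf4 (2201 and 1887, −0.47, −0.56 to −0.38) were lower as well. On the high side stood Ugp2, an enzyme of glycogen synthesis (36 and 89, 1.06, 0.48 to 1.66), and Esm1, a tip cell gene (28 and 98 counts), of which 3 barcodes held 55.1% in hyperoxia.

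Aerocyte-like cells (1527 genes, 1.83% higher and 2.75% lower) had the same factors lower. Klf4 had 755 and 388 counts (−0.90, −1.08 to −0.72), Klf2 766 and 416 (−0.82, −1.0 to −0.65) and Klf9 168 and 86 (−0.91, −1.30 to −0.52). Dusp1, a phosphatase induced by stress and glucocorticoids, had 313 and 171 (−0.81, −1.09 to −0.54), and Cdkn1a 97 and 58 (−0.68, −1.18 to −0.20). Some barcodes of this class carried RNA of another type: Sftpc, the surfactant protein of type II cells, had 89 and 1307 counts, 94.5% of the latter in 3 barcodes.

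In large vessel-like cells 3.82% of 1126 genes were at least 1.5-fold higher and 4.53% lower. Map1b, a microtubule-associated protein, had 41 and 117 counts (1.22, 0.69 to 1.77), Sulf1, a heparan sulfatase, 39 and 108 (1.17, 0.63 to 1.74) and Bmx, an arterial kinase, 29 and 79 (1.15, 0.52 to 1.82). Of these, Sulf1 turned to −0.121 when cells were thinned to 1000 counts, and Map1b had 4 and 83 counts in Xist cells (3.40, 1.99 to 5.31) and 29 and 21 in Y-linked cells (0.00, −0.88 to 0.86). Lower were Lrg1 (78 and 37, −1.37, −1.98 to −0.79), Cebpd (72 and 37, −1.26, −1.87 to −0.66) and the adhesion molecule Vcam1 (106 and 63, −1.05, −1.52 to −0.58), which leukocytes bind at inflamed venules. Sftpc again lay in few barcodes, with 63 and 948 counts and 95.4% of the latter in 3 barcodes.

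Cxcr4, the receptor for Cxcl12 that holds leukocytes in tissue and marks sprouting endothelium, did not have the same direction in all classes. It was lower in 13 of the 16 classes with enough counts, not all of them immune, with 11 intervals below 0. Nonclassical monocyte-like cells had 221 and 114 counts (−1.33, −1.67 to −1.0), classical monocyte-like cells 70 and 40 (−1.15, −1.75 to −0.57), B cell-like cells 1214 and 753 (−0.76, −0.89 to −0.63) and T cell-like cells 244 and 204 (−0.51, −0.78 to −0.24). In general capillary-like cells the same gene had 117 and 198 counts (0.51, 0.17 to 0.85) and in large vessel-like cells 51 and 93 (0.57, 0.06 to 1.09), so there the hyperoxia library was the higher one. Type II-like cells were the third class above 0 (0.80), with an interval that spanned 0.

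Classical monocytes, which renew from the marrow throughout life, shared the low glucocorticoid genes. In classical monocyte-like cells (1822 genes, 2.52% higher and 1.26% lower) Per1 had 78 and 42 counts (−1.24, −1.81 to −0.68) and Tsc22d3 175 and 106 (−1.07, −1.43 to −0.71). The invariant chain Cd74, a chaperone of MHC class II, had 1363 and 1052 counts (−0.72, −0.84 to −0.60). In nonclassical monocyte-like cells (1921 genes, 1.41% higher and 2.29% lower) Ubtf, a factor of ribosomal RNA transcription, had 33 and 98 counts (1.19, 0.61 to 1.81). Ifitm6 had 51 and 134 (1.02, 0.54 to 1.51). Ubtf stood at 2.38 in their Xist cells and 1.35 in their Y-linked cells, and Ifitm6 at 1.34 (0.53 to 2.23) and 0.19 (−0.76 to 1.17). Per1 in these cells stood at −0.10 (−1.14 to 0.99) in Xist cells and −0.67 (−2.30 to 0.87) in Y-linked cells. Tsc22d3 stood at −0.62 (−1.11 to −0.14) in Xist cells and −0.24 (−0.93 to 0.45) in Y-linked cells. Hmox1, the heme oxygenase, had 143 and 45 counts there, and 3 barcodes held 66.4% of the air counts.

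In alveolar macrophage-like cells (4925 genes, 1.24% higher and 1.46% lower) Ftl1 had 1740 and 5011 counts (1.28, 1.2 to 1.36). The immediate early genes Nr4a1 (81 and 164, 0.77, 0.38 to 1.17) and Atf3 (83 and 151, 0.62, 0.22 to 1.02) were past the fold upward there and Dusp1 (2191 and 1613, −0.69, −0.78 to −0.59) downward. Hmox1 had 172 and 312 counts (0.61, 0.34 to 0.89), 3 barcodes holding 29.7% and 43.3% of them. Interstitial macrophage-like cells (719 genes, 2.78% higher and 4.59% lower) were few, 65 and 55. Wwp1, a ubiquitin ligase, had 51 and 121 counts there (1.36, 0.87 to 1.86), and the monocyte chemoattractants Ccl7 (36 and 64) and Ccl12 (54 and 92) stood at 0.94 and 0.88, from 14 to 19 cells in a library. Of the 7 CC chemokines tested in the class 3 were past the fold downward, Ccl8 (130 and 53, −1.18, −1.67 to −0.71), Ccl6 (148 and 79, −0.80, −1.21 to −0.39) and Ccl9 (114 and 68, −0.64, −1.09 to −0.19), with 3 barcodes holding 76.9% of the air Ccl8. The chemokines were thus divided in this class. Retnla, a marker of alternative activation, had 354 and 9 counts, 99.4% of the air counts in 3 barcodes.

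In lymphocytes the genes past the fold were 0.992% of 6353 genes upward and 0.881% downward in B cell-like cells, 1.36% and 1.32% of 4619 genes in T cell-like cells, and 1.86% and 1.47% of 1561 genes in NK cell-like cells. Zfp36l2, an RNA-binding protein that destabilizes mRNA and restrains B cell proliferation, had 2746 counts in 995 air B cell-like cells and 1351 counts in 736 hyperoxia cells (−1.09, −1.19 to −1.0). The 3 barcodes with most counts held 1.42% and 1.92% of them, so the difference was spread over the class. Dusp1 had 714 and 481 counts in the same cells (−0.64, −0.81 to −0.47) and Tsc22d3 2846 and 2064 (−0.53, −0.62 to −0.45). In T cell-like cells Ptpn22, a phosphatase that restrains receptor signalling, had 80 and 49 counts (−0.96, −1.50 to −0.43). It stood at −0.20 (−1.24 to 0.89) in their Xist cells and −0.97 (−2.04 to 0.01) in their Y-linked cells. The small nuclear RNA Rn7sk, which holds back transcription elongation, had 141 and 318 counts in T cell-like cells (0.92, 0.63 to 1.22), 64 and 183 in NK cell-like cells (1.47, 1.06 to 1.91) and 365 and 749 in type II-like cells (0.92, 0.74 to 1.10), but 151 and 39 in large vessel-like cells, where 3 barcodes held 86.1% of the air counts. Of the terminal 31-base words of Rn7sk, 72.8% also occurred in another gene.

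Type II-like cells (7391 genes, 1.15% higher and 1% lower) had level surfactant genes. Sftpc had 410319 and 453717 counts (0.03, 0.02 to 0.03), Sftpa1 54791 and 57969 (−0.04, −0.05 to −0.02) and the lipid transporter Abca3 4298 and 4991 (0.10, 0.04 to 0.16). Sftpb had 32 and 60 counts in these cells (0.79, 0.15 to 1.45), below the minimum needed to count as past the fold. It also has a numbered entry and too few counts for a surfactant gene. Over all cells, 15 surfactant and type II cell genes had a median of 0.03. Sftpb (36 and 64 counts) and Lyz2 were past the fold upward there, against 1.14% of all tested genes. Mfsd2a, a lysolipid transporter, had 52 and 104 counts (0.88, 0.39 to 1.39), and the desaturase Scd1 23448 and 30679 (0.27, 0.24 to 0.29). Cdkn1a was on the high side here, unlike in capillary cells, with 67 counts in 43 air cells and 108 counts in 75 hyperoxia cells (0.57, 0.12 to 1.03), short of 1.5-fold.

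The lists of senescence marks, p53 targets, and Nrf2 and antioxidant genes had medians close to 0 over all cells. Senescence marks had a median of 0.00 over 10 tested genes, p53 targets 0.01 over 15 and Nrf2 and antioxidant genes −0.07 over 17, with none past the fold in any of the 3. Cdkn1a had 659 and 634 counts (−0.22, −0.38 to −0.06), and Cdkn2a, which encodes p16, had 11 and 8 counts, too few for a comparison. Of 23 tested genes of the senescence-associated secretory phenotype, 2 were past the fold upward and none downward (1.14% and 0.828% of all tested genes), with a median of 0.06. These were Il1b, the inflammatory cytokine (987 and 1833 counts, 0.73, 0.62 to 0.84), and Cxcr2, the neutrophil chemokine receptor (92 and 186, 0.85, 0.48 to 1.23). Neutrophils carry both genes. Il1b lay above 0 in 7 of the 9 classes with at least 20 counts, with 3 intervals above 0 and 1 below. Its ratio ran from −1.37 in type II-like cells to 2.34 in general capillary-like cells. Whether neutrophil numbers account for either gene was not tested.

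Neutrophil granule and S100 genes, 10 in all, had 4 past the fold upward and 3 downward (median 0.09), against 1.14% and 0.828% of all tested genes. S100a8 and S100a9, the calprotectin subunits, had 3579 and 6075 counts (0.60, 0.54 to 0.66) and 3464 and 6199 (0.67, 0.61 to 0.73), and Retnlg, of mature neutrophils, 194 and 505 (1.21, 0.97 to 1.46). Mmp9 had 177 and 314 counts (0.66, 0.39 to 0.94). Within the neutrophil-like cells Retnlg stood at 2852 and 4628 CPM (0.70, 0.45 to 0.95). The granule genes of immature neutrophils ran the other way: Ngp (233 and 17), Camp (223 and 3) and Ltf (226 and 36) had most of their air counts in 3 barcodes, with Camp counted in 3 and 2 cells.

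Interferon-stimulated genes were slightly above 0 as a list, with 18 of 21 on that side and a median of 0.15, where 53.9% of all genes without a numbered entry lay above 0. Ifit1 had 183 and 308 counts (0.59, 0.32 to 0.86) and Oas1a 29 and 83 (1.35, 0.73 to 2.01). These 2 were past the fold upward, against 1.14% of all tested genes. Of the terminal 31-base words of Oas1a, 61.9% also occurred in another gene. Ifit1 had 55 and 102 counts in general capillary-like cells (0.64, 0.16 to 1.14). Among immediate early genes 13 of 15 lay above 0, with a median of 0.14 and none past the fold, including Fos (14318 and 17525, 0.13, 0.09 to 0.16). Of 6 heat shock genes tested, Hsph1 was past the fold downward (509 and 343, −0.73, −0.94 to −0.53), against 0.828% of all tested genes. The list's median was −0.19.

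Chemokines of the CC family were divided, with Ccl7 and Ccl12 past the fold upward and Ccl8, Ccl17 and Ccl22 downward among 11 tested (median −0.07). Of all tested genes 1.14% were past the fold upward and 0.828% downward. Ccl17 had 465 and 305 counts (−0.77, −0.99 to −0.56) and Ccl22 329 and 225 (−0.71, −0.96 to −0.46), both of them dendritic cell attractants of T cells. The 3 leading barcodes held 67.2% and 49.8% of the Ccl22 counts, and its direction was opposite in Xist cells (242 and 95, −1.83) and Y-linked cells (32 and 68, 1.10). Of the matrix genes, Timp1 was the 1 past the fold of 20 (88 and 61 counts, −0.69, −1.19 to −0.21), with a median of 0.06. Elastin (Eln) over all cells had 2567 and 3654 counts (0.34, 0.27 to 0.42).

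The remaining lists lay close to all genes. The median was 0.06 over 15 vascular growth factors and receptors, 0.06 over 16 genes of cholesterol and fatty acid synthesis, 0.00 over 13 genes of hypoxia and glycolysis, −0.07 over 9 cytotoxic granule genes and −0.11 over 10 cell cycle genes, with no gene past the fold in any of them. MHC class I presentation had a median of 0.11 over 5 genes, with H2-K1 past the fold upward, against 1.14% of all tested genes. MHC class II had a median of 0.01 over only 2 of 8 genes. H2-Aa, which B cells and macrophages express strongly, had 31 and 41 counts and also has numbered entries, so class II genes were hardly counted under their own symbols. Sex genes had a median of −0.05 over 5. Hemoglobin genes, 4 of 4 past the fold downward (0.828% of all tested genes) with a median of −1.31, are among the markers by which erythroid-like barcodes were counted. Within classes they rested on few cells and took either direction, Hbb-bs having 21 and 1311 counts in NK cell-like cells (99.2% of the latter in 3 barcodes) and 7231 and 559 in B cell-like cells.

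**Figure D5:**
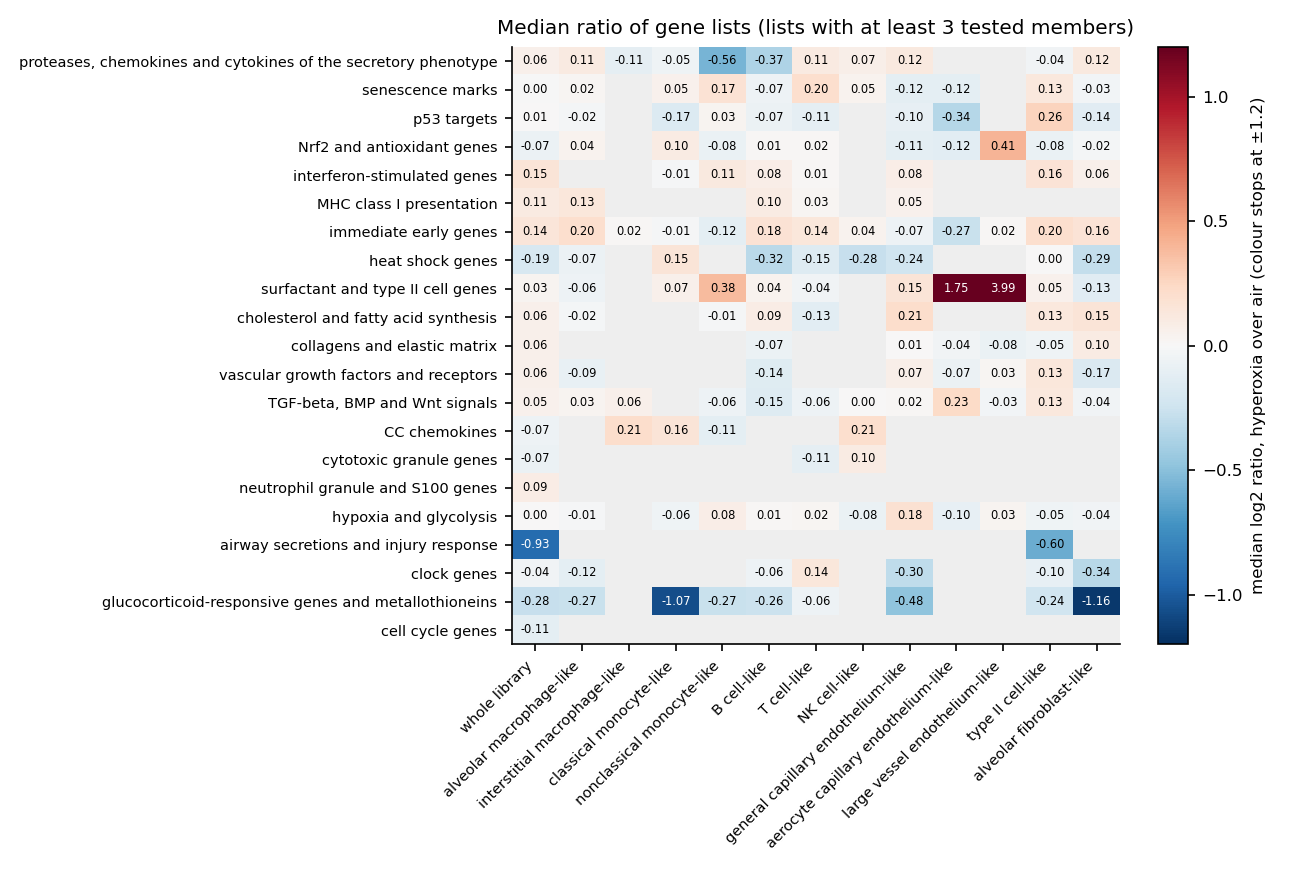
Median log2 ratio of hyperoxia over air for the gene lists with at least 3 tested members, over all cells and in 12 classes, as colours that stop at 1.2 either way, hemoglobin and sex genes left out. Most cells of the map are pale. Glucocorticoid-responsive genes are negative in alveolar fibroblast-like cells (−1.16) and classical monocyte-like cells (−1.07), airway secretions are negative over all cells (−0.93), and surfactant genes are positive in aerocyte-like (1.75) and large vessel-like cells (3.99), where Sftpc lay in few barcodes.

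The same genes stood differently at pnd7, soon after the exposure, in 3554 unsorted cells. Of the 148 genes higher at pnd60, 95 had at least 100 counts at pnd7, where 5 were at least 1.5-fold higher and 13 lower, and their median was 0.17. Of the 107 lower genes, 68 had enough counts, 7 of them higher and 15 lower, with a median of −0.15. Of all 11997 genes with enough counts 1.06% were higher at pnd7 and 2.66% lower. Id3 stood at 1.44 at pnd60 and 0.45 at pnd7, Srsf3 at 1.64 and 0.39, Ftl1 at 1.18 and 0.04, Tsc22d3 at −0.65 and −0.05, and Per1 at −0.57 and −0.05. Cyp1a1 had 7 and 5 counts at pnd7, too few to compare, so its high level in air was seen in the adult only. Id3, Srsf3, Ftl1, Tsc22d3 and Per1 were thus each less than 1.5-fold apart at pnd7. As a share, 5.26% of the higher genes with enough counts were higher at pnd7 and 13.7% lower. For the lower genes the shares were 10.3% and 22.1%. Each of these shares exceeded that of all genes, whichever the direction. The pnd7 and pnd60 contrasts share no library, and each rests on 1 library a side.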

How the data were processed

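Lung cells were captured with the 10x Chromium 3′ kit (v3.1 chemistry) and sequenced on an Illumina HiSeq. The deposited matrices hold counts of unique molecules per gene, which the authors made with Cell Ranger, and mm10 and Seurat 3.2.1 are named in the submitters' processing notes. The matrix header gives software version 3.1.0. How reads from near-identical genes were assigned is not given in the sources used here. The members, gene lists and gene names were chosen with earlier results of these data known.

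Barcodes were filtered as above, from 5128 barcodes in air and 5632 in hyperoxia, with only 2 features starting mt-. The pnd60 libraries were integrated with SCTransform (Seurat 5.3.0, sctransform 0.4.2, R 4.3.3; 3000 features, 50 dimensions, resolution 2) and clusters were named from marker lists. Counts were summed by library and class in Python 3.11.15. Named genes were the 10 highest and 10 lowest ratios with at least 500 counts over all cells, the 5 highest and 5 lowest in each class with at least 100 counts and a level at least 0.25 of that in the highest class (immune receptor segments left out), members of the lists and sex genes. Other genes named (Tiparp, Cyp1b1, Ahrr, Fth1, Gng5-ps, the genes with numbered entries, and Klf2, Klf4 and Klf9 outside aerocyte-like cells) were chosen after their values were seen. Scrublet marked 298 doublets, which stayed in except in an alternative. The scripts were tested on simulated data. Alternatives tried were a wider filter, doublets removed, TMM (edgeR 4.0.16), mean CPM per cell, thinning to 1000 counts, other count minimums and folds, and resolution 1, Leiden clusters or each cell's own markers. The split by sex genes, leaving out 3 barcodes per gene, and adding copies were chosen after seeing the data.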

Additional observations from a re-analysis of the deposited data

Results flagged for a closer look

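Several genes had opposite directions in cells with Xist only and in cells with Y-linked counts only. Both kinds of cells come from the same pair of libraries, none of the differences was tested between mice, and the number of mice of each sex is not known. The difference of the log2 ratios (Xist cells minus Y-linked cells) was 4.35 for Cyp1a1 over all cells, 6.03 in general capillary-like cells and 6.65 in aerocyte-like cells. For Bpifa1 it was 9.38 over all cells and 14.9 in type II-like cells, the latter from 3 and 40 counts in Xist cells and 3685 and 1 in Y-linked cells, with most of the air counts in 3 barcodes.

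Hemoglobin genes gave the other opposite directions, in classes that should lack them. In B cell-like cells the difference was 10.6 for Hbb-bs, 10.6 for Hba-a2 and 12.1 for Hba-a1. In T cell-like cells it was 5.58 for Hbb-bs, 8.19 for Hba-a1 and 7.08 for Hba-a2, and in alveolar macrophage-like cells 1.57 for Hbb-bs, 2.30 for Hba-a1 and 2.14 for Hba-a2. In T cell-like cells 94.2% of the air Hbb-bs counts were in 3 barcodes.

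Opposite directions at pnd60 and pnd7 were seen for a further 12 values, again untested, with cells classed one by one at both ages. Over all cells the pnd60 ratio exceeded the pnd7 ratio by 1.89 for Retnlg and 1.47 for Mmrn1, a gene of lymphatic endothelium. In general capillary-like cells the difference was 1.74 for Ugp2 and −2.38 for Med20, in large vessel-like cells −2.30 for Cebpd and in classical monocyte-like cells −2.09 for Cebpg. Retnla in interstitial macrophage-like cells gave −13.5, from 355 and 9 counts at pnd60 and 0 and 139 at pnd7. With 0 counts in air at pnd7 this value depends on the small number added to each count and is no measure of size, and 99.4% of the air counts in the class at pnd60 lay in 3 barcodes. Hemoglobin genes gave −1.81 for Hba-a1 in B cell-like cells, −2.23, −2.79 and −3.32 for Hbb-bs, Hba-a1 and Hba-a2 in T cell-like cells and −2.99 for Hba-a1 in NK cell-like cells.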

How the results depend on the processing

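No paired analysis was possible because a single library stood for each condition, without replicate numbers in the labels. For the same reason no replicate could be left out. Setting aside the alternatives chosen after seeing the data, 113 values for shares stayed within the counting interval and 1 moved, the neutrophil-like ratio, which became 0.155 with the wider filter. Of the list medians 134 stayed and 10 moved. Of the ratios of named genes over all cells 84 stayed, 36 moved and 0 reversed, and in the classes 951 stayed, 97 moved and 12 reversed. Resolution 1, Leiden clusters and the wider filter gave no value for some classes, whose cells were then merged or unnamed.

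The number of genes past the fold over all cells (148 and 107) became 92 higher with thinned cells, 288 and 194 with a minimum of 50 counts, 2793 and 3028 with no minimum, and 35 and 32 at 2-fold. Summed over the 12 classes, 604 and 660 became 64 and 100 at 2-fold and 2280 and 2185 with a minimum of 50. List medians moved for airway genes (−1.34 without doublets, −0.336 with mean CPM per cell, −0.330 thinned), heat shock genes (−0.255 and −0.246), surfactant genes (0.156 and 0.184), cell cycle genes (0.215 thinned) and hemoglobin (−1.37 with the wider filter, −1.67 without doublets). The cause was not tested.

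Reversals, cause not tested: with Leiden clusters, Hbb-bt in interstitial macrophage-like cells (0.0123) and Hbb-bs (−0.949), Hba-a2 (−3.48), Hba-a1 (−2.26) and Hbb-bt (−2.60) in NK cell-like cells. With each cell's own markers, the same NK genes (−0.919, −3.57, −2.43, −2.92). Thinned, Sulf1 (−0.121) and Fbln2 (−0.332) in large vessel-like and Acad8 (0.0406) in type II-like cells. With copies added, Lyz1 (0.134).

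In Y-linked cells, Mmrn1 over all cells (−0.0246), Ltb4r1 in classical (−0.00295) and Plekho1 in nonclassical monocyte-like cells (0.0326), Hbb-bs in NK cell-like (−1.21), Fbln2 (−0.153) and Rn7sk (0.0539) in large vessel-like and Sinhcaf (−0.123) in alveolar fibroblast-like cells. In Xist cells, Bpifa1 (1.62 over all cells, 3.20 in type II-like), Cyp1a1 (0.552, 2.04 in general capillary-like, 2.69 in aerocyte-like), Vgll4 in aerocyte-like (−0.0882) and Snhg1 in B cell-like cells (−0.0670). Hemoglobin genes also reversed in Xist cells: in alveolar macrophage-like cells Hbb-bs 0.793, Hba-a1 1.65 and Hba-a2 1.68, in B cell-like Hbb-bt 0.287, Hbb-bs 2.27, Hba-a2 2.37 and Hba-a1 2.81, in T cell-like Hbb-bs 3.01, Hba-a1 4.65 and Hba-a2 4.18, and in NK cell-like Hbb-bs −1.32, Hba-a2 −2.69, Hba-a1 −2.10 and Hbb-bt −2.10.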

Other observations

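Of 10451 genes with at least 100 counts in Xist cells and as many in Y-linked cells, 11 were past the fold in opposite directions. Among these were Ccdc113 and Mns1, genes of the ciliary axoneme, which had 31 and 76 and then 37 and 79 counts in Xist cells and 75 and 44 and then 80 and 45 in Y-linked cells. Hhip, a hedgehog inhibitor of lung fibroblasts, had 454 and 414 counts in Xist cells (−0.61) and 100 and 253 in Y-linked cells (1.35). Antibody genes of plasma cells, Jchain and Igha_1, had 99.4% and 98.9% of their air counts in 3 barcodes.

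An unnamed cluster with the antigen receptor rearrangement genes Rag1 and Dntt among its 10 leading genes held 50 cells of the air library and 31 of the hyperoxia library (1.14% and 0.652%, log2 ratio −0.80, −1.50 to −0.13). Another led by Mmrn1 held 12 and 20 cells (0.62, −0.48 to 1.79). Mmrn1 itself had 350 and 705 counts over all cells (0.84, 0.66 to 1.03) in 25 and 32 cells, but 1.67 without the 3 leading barcodes of each library, which held 63.4% and 35.0% of its counts, and −0.0246 in Y-linked cells.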
